A study of Mus musculus with 39 samples.

Results

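The lungs of 5 mice fed permethrin at 5000 ppm for 7 days were compared with those of 5 mice fed the control diet for 7 days. These 10 arrays, chosen by their titles, are part of a series of 39. All animals were females of the outbred strain Crlj:CD1(ICR), aged 11 weeks in the 7-day groups, and each array held the lung RNA of 1 animal. The treated diet was a powdered feed with permethrin at 5000 ppm, and the control diet held 0 ppm of the compound. Further groups are used below only to place the response: permethrin at 10000 ppm for 7 days, isoniazid at 2500 ppm for 7 days, and permethrin at 5000 ppm or the control diet for 14 days (aged 12 weeks), each with 5 animals. Isoniazid, a drug against tuberculosis, served in the study as a positive control for tumour induction. Whole lung was measured, so fewer cells of a type and less RNA per cell cannot be told apart.

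Permethrin is a pyrethroid insecticide that holds voltage-gated sodium channels of nerve open, and in mammals its ester bond is cut by carboxylesterases. Electrophilic and oxidizing compounds act on KEAP1, which otherwise marks the transcription factor NRF2 for destruction; NRF2 then enters the nucleus and drives genes of glutathione synthesis, glutathione transfer, quinone reduction and the thioredoxin system. In lung, much of the metabolism of foreign compounds takes place in club cells of the airway lining and in alveolar type 2 cells.

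The 10 arrays had median signals of 17.8 to 22.6, correlations of 0.922 to 0.945 with each other, and a Gapdh 3' to 5' log2 ratio of -0.35 to 0.66. No arrays were identical. The values below are log2 signals after quantile normalization, and each fold change is permethrin over control. Each ± beside a fold change is a standard error (SE) from the limma model, with 5 animals per group compared. That model estimates the variance of a gene from all 39 arrays, so the SE is not the spread of the compared animals alone. The number of animals limits the precision.

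Permethrin at 5000 ppm raised 12 genes in lung after 7 days, and no gene was lower past the threshold. They were *Gsta2*, *Txnrd1*, *Nqo1*, *Ces1g*, *Srxn1*, *Ephx1*, *Gpx2*, *Blvrb*, *Cbr3*, *Aldh3a1*, *Gclm* and *Ces1f*. The folds ran from 1.57 for *Ephx1* to 3.69 for *Ces1g*. In all 12 genes every treated animal lay above every control animal. Of 13020 genes tested with limma, the 12 that passed a Benjamini-Hochberg adjusted p of 0.05 are 0.0922%. At an unadjusted p under 0.05 there were 142 genes higher (1.09%) and 117 lower (0.899%), together 1.99% of those tested. Over all genes, 52 had all treated animals above all controls (0.399%) and 45 had all treated animals below all controls (0.346%).

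All 12 encode enzymes that conjugate, reduce, oxidize or hydrolyse reactive compounds, or that supply or spend glutathione and thioredoxin. The 11 lists that cover these functions had 131 tested genes, of which 12 rose and none fell. In 21 of the 131 (16.0%) all treated animals lay above all controls, and in 1 all lay below. These lists were written with earlier results of the same data known, so their counts are a description. Their median log2 fold change was 0.09, against -0.01 over all genes tested, so most members lay close to no change while a few moved far.

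**Figure D1:**
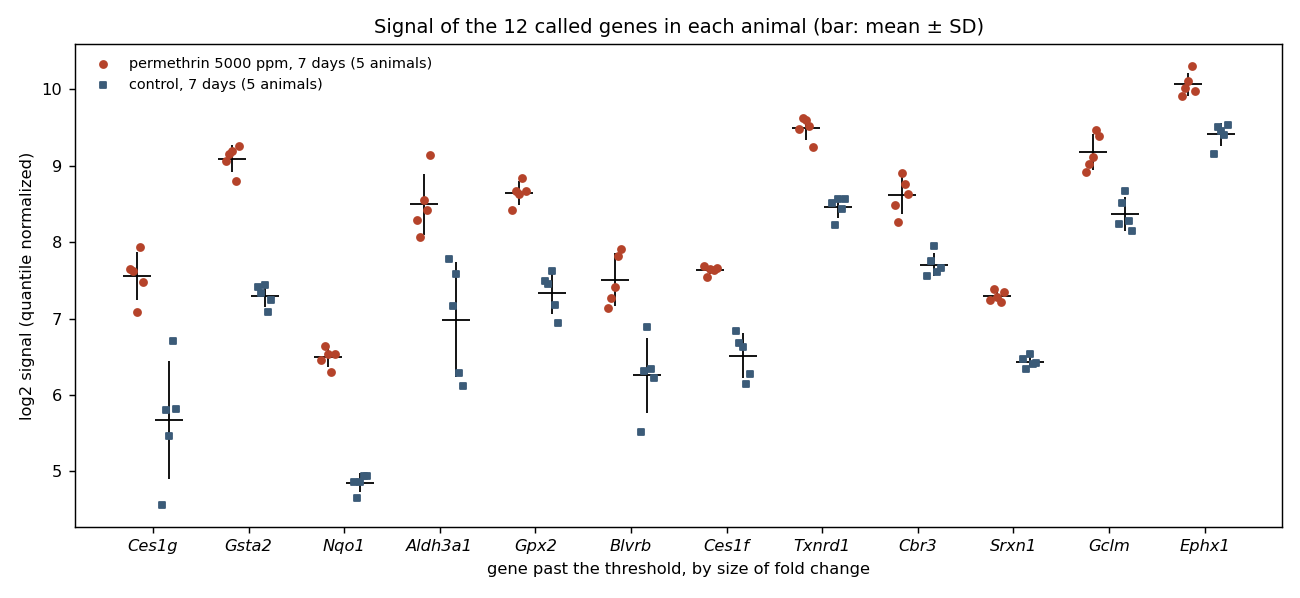
Log2 signal (quantile normalized) of the 12 genes past the threshold in each animal, permethrin 5000 ppm as circles and control as squares, with mean ± SD (5 animals each). In every gene the lowest treated animal lies above the highest control animal; the gap is narrowest for *Gclm* (0.25) and *Blvrb* (0.25) and widest for *Gsta2* (1.36) and *Nqo1* (1.35).

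*Gsta2* encodes an alpha-class glutathione transferase, which joins glutathione to electrophiles. Its log2 signal was 9.06, 9.15, 9.19, 8.80 and 9.25 in the treated animals, against 7.41, 7.34, 7.44, 7.08 and 7.24 in the controls. The groups lay far apart and each was tight. The log2 fold change was 1.79 ± 0.21 (SE), a 3.46-fold rise with an adjusted p of 6.25e-06 in limma.

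*Gsta2* was the only 1 of 20 tested glutathione transferases to pass, while 18 of the 20 estimates were positive, with a median of 0.16. *Gstm1*, a mu-class transferase, was the nearest to passing, at 11.11, 11.24, 11.08, 11.08 and 11.29 in treated animals and 10.83, 10.75, 10.79, 10.68 and 10.59 in controls. The groups did not overlap, and the estimate of 0.43 ± 0.09 had an adjusted p of 0.0561. Its 3 other measured probe sets gave 0.50, 0.57 and 0.67. *Gsta4*, which clears the lipid aldehyde 4-hydroxynonenal, was 0.42 ± 0.14 with no overlap of the groups, but its adjusted p was 1.0. *Mgst1*, a membrane-bound transferase, was 0.18 ± 0.05 (adjusted p = 0.686), and *Gsta3* was 0.50 ± 0.22 with overlapping groups.

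*Gclm* encodes the modifier subunit of glutamate-cysteine ligase, the enzyme of the limiting step in glutathione synthesis. *Gclm* was 8.92, 9.02, 9.11, 9.47 and 9.39 in treated animals and 8.24, 8.51, 8.67, 8.28 and 8.14 in controls. Control replicate 3 came closest to the treated animals. On the log2 scale permethrin over control was 0.81 ± 0.16 (adjusted p = 0.0196), but leaving out control replicate 1, 4 or 5, or permethrin replicate 4 or 5, ended the call (adjusted p of 0.0828, 0.0854, 0.132, 0.131 and 0.124). With the replicate number as a block it was 0.161, and with only the 7-day groups in the model 0.0582. A dimmer second probe set of *Gclm* gave 0.78 ± 0.14. When every probe set was tested with limma, it passed (adjusted p = 0.0044), as did the brightest (adjusted p = 0.0294).

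The catalytic subunit, *Gclc*, had the larger estimate but did not pass in its brightest probe set. It was 9.84, 10.08, 10.17, 10.36 and 10.69 in treated animals and 9.30, 9.23, 9.51, 9.04 and 8.71 in controls, again with no overlap. The log2 fold change was 1.07 ± 0.26 with an adjusted p of 0.13. A second probe set of *Gclc* gave 0.90 ± 0.14 and passed when every probe set was tested, as did a second probe set of *Gss*, glutathione synthetase (0.80 ± 0.15). The brightest *Gss* probe set was 0.66 ± 0.16 (adjusted p = 0.13). *Slc3a2*, the heavy chain of the cystine importer, was 0.29 ± 0.09 and *Gsr*, glutathione reductase, 0.44 ± 0.20, neither past the threshold. Among the 12 tested genes of glutathione synthesis, import and recycling, 1 rose, none fell and the median was 0.01.

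*Txnrd1*, cytosolic thioredoxin reductase, was 9.48, 9.63, 9.60, 9.52 and 9.24 in treated animals and 8.51, 8.22, 8.57, 8.43 and 8.56 in controls. Its groups were separated by 0.67 log2 units, and the log2 fold change was 1.04 ± 0.14 (adjusted p = 3.78e-05). A dim second probe set of the gene gave 0.68 ± 0.53, and with the mean of a gene's probe sets in place of the brightest the adjusted p was 0.841.

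*Srxn1* encodes sulfiredoxin, which restores over-oxidized peroxiredoxins. It was 7.24, 7.39, 7.28, 7.22 and 7.34 in treated animals and 6.47, 6.35, 6.54, 6.41 and 6.41 in controls. Both groups were tight. This gave a log2 fold change of 0.86 ± 0.14 (adjusted p = 0.0011), and its 3 dimmer probe sets gave 0.70, 0.88 and 0.97. With the mean of its probe sets the adjusted p was 0.189. Of the 12 tested genes of the thioredoxin and sulfiredoxin system 2 rose and none fell. Thioredoxin itself, *Txn1*, was 0.11 ± 0.06 and *Txnrd3*, a testis-enriched thioredoxin reductase, -0.22 ± 0.14, the 1 member of the 11 lists in which all treated animals lay below all controls.

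*Gpx2* encodes the epithelial form of glutathione peroxidase, which reduces hydrogen peroxide and lipid peroxides. It was 8.41, 8.67, 8.62, 8.84 and 8.67 in treated animals and 7.49, 7.45, 7.62, 7.17 and 6.95 in controls. The treated animals stood close together and the controls spread more widely below them. The log2 fold change was 1.31 ± 0.23 (adjusted p = 0.00398), and *Gpx2* was the 1 member of 10 tested peroxidases, dismutases and catalase to pass. Catalase, *Cat*, was 0.23 ± 0.12 with overlapping groups.

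Among 14 tested quinone, carbonyl and aldo-keto reductases 2 rose and none fell. *Nqo1*, which reduces quinones without a radical intermediate, was 6.46, 6.65, 6.53, 6.30 and 6.54 in treated animals and 4.86, 4.65, 4.86, 4.95 and 4.95 in controls. No control came within 1.35 log2 units of a treated animal. On the log2 scale permethrin over control was 1.64 ± 0.23, a 3.12-fold rise (adjusted p = 9.91e-05).

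*Cbr3*, a carbonyl reductase, was 8.49, 8.27, 8.91, 8.76 and 8.63 in treated animals and 7.56, 7.75, 7.94, 7.61 and 7.66 in controls. The groups were apart, and the log2 fold change was 0.91 ± 0.17 (adjusted p = 0.00802), or 0.0516 without permethrin replicate 3 and 0.194 with each array centred on its median. Its paralog *Cbr1* was 0.46 ± 0.11 with no overlap but an adjusted p of 0.13. *Akr1b8*, an aldo-keto reductase, was 0.60 ± 0.15, also without overlap (adjusted p = 0.161), and *Ptgr1*, prostaglandin reductase, was 0.54 ± 0.24 with overlapping groups.

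*Aldh3a1* oxidizes aromatic and medium-chain aldehydes. It was 8.29, 8.07, 8.55, 8.42 and 9.14 in treated animals and 7.78, 7.16, 7.58, 6.29 and 6.12 in controls. Controls 4 and 5 were far lower than the other 3, and treated animal 5 was the highest. The log2 fold change was 1.51 ± 0.29 (adjusted p = 0.00847), and the call was lost without control replicate 4 or 5 or permethrin replicate 5 (adjusted p of 0.0854, 0.0961 and 0.083). It was also lost with only the compared groups in the model (adjusted p = 0.191) and with the replicate number as a block (adjusted p = 0.471). Of 16 tested aldehyde dehydrogenases it was the 1 that rose. *Aldh1a1*, an abundant club cell form, was 0.22 ± 0.05 with no overlap of the groups and an adjusted p of 0.13.

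The group of ester hydrolases includes the enzymes that cut pyrethroid esters. *Ces1g*, a carboxylesterase well known in liver and intestine, was 7.65, 7.62, 7.08, 7.94 and 7.48 in treated animals and 4.56, 5.80, 5.46, 6.70 and 5.82 in controls. The controls spread widely, yet the highest of them was below the lowest treated animal. This gave a log2 fold change of 1.88 ± 0.28 (adjusted p = 0.000292).

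*Ces1f* was 7.68, 7.54, 7.65, 7.64 and 7.66 in treated animals and 6.84, 6.68, 6.63, 6.14 and 6.28 in controls. The treated values were nearly equal. Its log2 fold change was 1.12 ± 0.24 and its adjusted p of 0.0468 was the highest of the 12; leaving out any 1 of the 10 animals ended the call, with an adjusted p between 0.0524 (without control replicate 1) and 0.23 (without control replicate 4). It was also lost with each array centred on its median (0.0505), with no filter (0.0602) and with no mean-variance trend (0.0708). When every probe set was tested, *Ces1f* did not pass either. The suffix of its probe set marks probes shared by related transcripts, so other carboxylesterases could add to the signal. The *Srxn1* probe set and the second *Gclc* probe set carry the same suffix. The second *Gss* and the brightest *Gstm1* probe sets carry another suffix (x), so their values too may not be specific to 1 gene. Of the 12 tested ester hydrolases 2 rose, none fell, 11 estimates were positive and the median was 0.20. *Ces1e* was 0.38 ± 0.17 and *Pon3*, a paraoxonase, 0.35 ± 0.14, both with overlapping groups.

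Both carboxylesterases are also abundant in liver, so liver markers are given beside them. The 19 tested liver markers had a summed signal of 1495 to 4027 in treated animals (median 1799) and 1787 to 4841 in controls (median 4211). Of the 19, 18 had a negative estimate, none passed, and the median log2 fold change was -0.37. Their part in the *Ces1g* and *Ces1f* values was not tested. *Cyp3a11*, a liver cytochrome P450, was 8.42, 8.61, 5.84, 6.12 and 6.13 in treated animals and 9.14, 8.86, 5.66, 8.30 and 9.29 in controls, so both groups held lungs with high and low values.

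*Ephx1* encodes microsomal epoxide hydrolase, which opens epoxides to diols. It was 9.91, 10.02, 10.10, 10.30 and 9.98 in treated animals and 9.16, 9.50, 9.45, 9.40 and 9.53 in controls. The groups were clear of each other, and the log2 fold change was 0.65 ± 0.11 (adjusted p = 0.0011). With each array centred on its median in place of quantile normalization the adjusted p was 0.485.

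Glucuronosyltransferases of the Ugt1a cluster share their last exons, and 3 probe sets that the annotation gives to 8 *Ugt1a* genes at once all passed when every probe set was tested. The first was 10.91, 10.90, 10.88, 10.77 and 10.74 in treated animals and 10.07, 10.20, 10.11, 9.95 and 10.24 in controls. The groups did not overlap, and the 3 log2 fold changes were 0.72 ± 0.09, 0.69 ± 0.09 and 0.72 ± 0.14 (adjusted p of 6.61e-06, 4.10e-05 and 0.0161). Which member of the cluster carried the rise cannot be read from these probe sets. A probe set shared by *Gsta1*, *Gsta2* and *Gm3776* rose by 1.91 ± 0.23. Of 27022 measured probe sets 21 passed (0.0777%), all higher: 15 of 23084 with 1 symbol, 5 of 638 with several and 1 of 3300 with none.

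*Blvrb*, biliverdin reductase B, reduces flavins and biliverdin in haem breakdown. It was 7.14, 7.27, 7.42, 7.82 and 7.91 in treated animals and 5.51, 6.32, 6.89, 6.35 and 6.23 in controls. Control replicate 1 was the lowest and control replicate 3 the nearest to the treated group. The log2 fold change was 1.25 ± 0.24 (adjusted p = 0.00802), and without control replicate 1 or permethrin replicate 4 or 5 the adjusted p was 0.0745, 0.051 and 0.0664. It was 0.0629 with each array centred on its median, 0.0731 with only the compared groups in the model and 0.0555 with the replicate number as a block. *Blvrb* is also abundant in red cells, and the summed signal of the 3 tested erythroid markers was 654 to 2106 in treated animals and 451 to 1266 in controls. All 3 erythroid estimates were positive with a median of 0.54; their part in the *Blvrb* rise was not tested.

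*Hmox1*, haem oxygenase 1, was 6.68, 6.84, 6.70, 6.86 and 6.72 in treated animals and 6.25, 6.11, 6.14, 5.90 and 6.08 in controls. The groups were apart, but the log2 fold change of 0.66 ± 0.16 had an adjusted p of 0.13. Of 11 tested genes of haem breakdown and iron storage 1 rose. *Alas1*, the first enzyme of haem synthesis, was 0.23 ± 0.13.

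None of 9 tested efflux transporters passed: *Abcc1*, an exporter of glutathione conjugates, was 0.27 ± 0.09, *Abcc3* 0.27 ± 0.11 and *Abcb6* 0.43 ± 0.18. None of 8 tested genes of NADPH supply passed, where *Pgd*, phosphogluconate dehydrogenase, was 0.48 ± 0.15 and *Taldo1*, transaldolase, 0.29 ± 0.13.

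The 8 tested genes of NRF2 and its partners had a median log2 fold change of 0.09, with 7 estimates positive and 1 negative. In limma, 1 of them had an unadjusted p under 0.05. *Nfe2l2*, which encodes NRF2, was 9.96, 9.97, 9.90, 10.11 and 10.05 in treated animals and 9.93, 9.85, 10.07, 10.02 and 9.94 in controls. The groups overlapped fully (log2 fold change 0.03 ± 0.08). *Keap1* was 0.07 ± 0.14 and *Sqstm1*, which binds KEAP1, 0.24 ± 0.11. None of the 8 tested members of this group passed. RNA levels say nothing of NRF2 protein, which was not measured here.

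**Figure D2:**
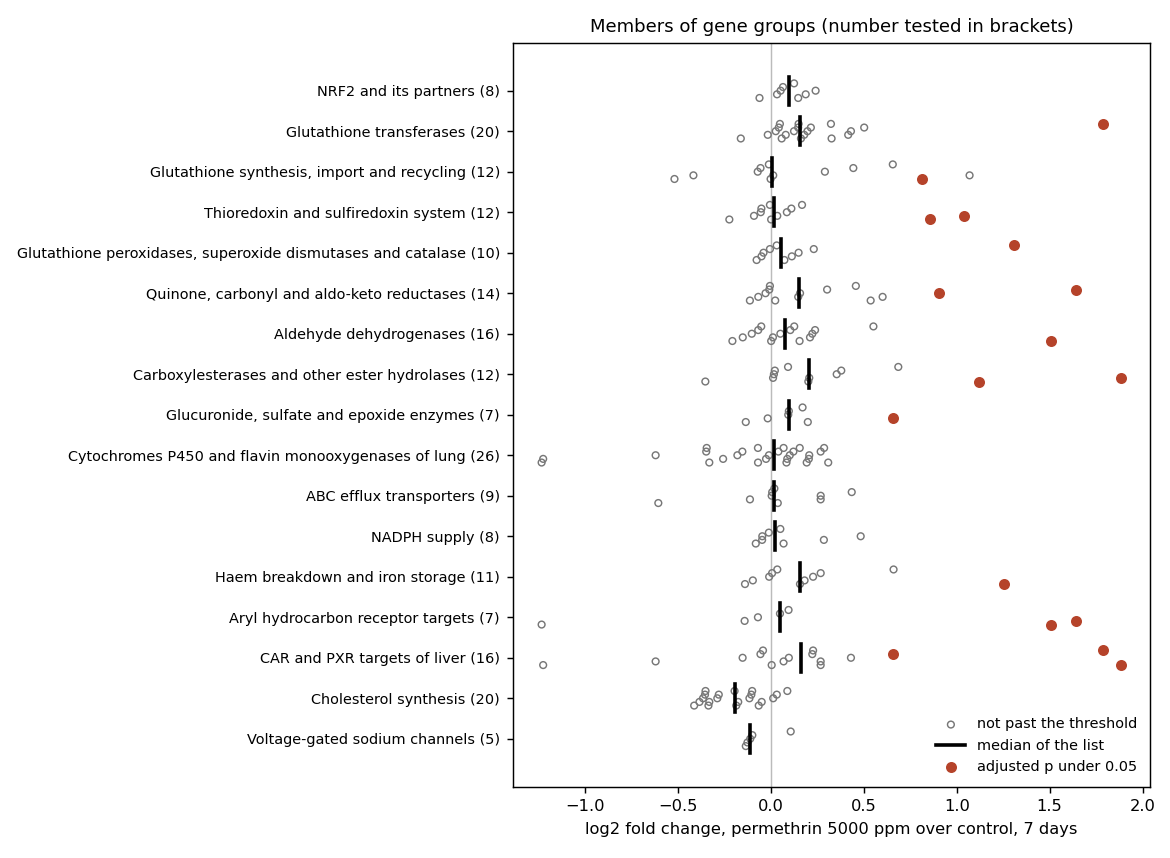
Log2 fold change of permethrin 5000 ppm over control at 7 days for each tested member of 17 gene groups, filled where the adjusted p was under 0.05, with the median of each list as a bar. The filled members lie between 0.65 and 1.88, while list medians lie between -0.19 for cholesterol synthesis and 0.20 for ester hydrolases.

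Cytochromes P450 did not pass in either direction. Of 26 tested P450s, flavin monooxygenases and partners, 13 estimates were positive and 13 negative, with a median of 0.01. *Cyp1a1*, the classic target of the aryl hydrocarbon receptor, was 4.68, 4.66, 4.42, 5.91 and 4.17 in treated animals and 6.25, 5.64, 5.85, 5.07 and 7.18 in controls. All but 1 treated animal lay below all controls, and the log2 fold change of -1.23 ± 0.37 had an adjusted p of 0.822.

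*Cyp1b1*, another target of that receptor, was -0.07 ± 0.17. Of 7 tested targets and partners of the receptor 2 rose, *Nqo1* and *Aldh3a1*, which NRF2 also regulates. *Cyp2b10*, the marker of the receptor CAR in mouse liver, was 10.80, 11.08, 10.89, 10.87 and 10.89 in treated animals and 10.68, 10.96, 10.65, 10.79 and 11.10 in controls. The groups overlapped (0.07 ± 0.09). Of 16 tested targets of CAR and PXR known from liver 3 rose, *Gsta2*, *Ces1g* and *Ephx1*. *Cyp2f2*, the abundant club cell P450, was 0.10 ± 0.05.

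Of 14 listed voltage-gated sodium channel genes, 11 had a probe set with 1 symbol. Of these, 5 were bright enough to test and none passed (median -0.11). *Scn7a*, a sodium-sensing channel, was 0.11 ± 0.16, *Scn3b*, a beta subunit, -0.11 ± 0.15 and *Scn3a* -0.14 ± 0.20. Each of these 3 estimates was smaller than its SE.

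Of 20 tested genes of cholesterol synthesis 17 had a negative estimate, none passed, and the median was -0.19. The unadjusted p was under 0.05 for 8 of them. *Fdft1*, squalene synthase, was 7.88, 8.05, 7.80, 7.70 and 7.51 in treated animals and 8.37, 8.19, 8.40, 8.12 and 7.94 in controls. The groups overlapped in 1 control and 1 treated animal (-0.41 ± 0.13, adjusted p = 1.0). *Mvk*, mevalonate kinase, was -0.37 ± 0.13, *Msmo1* -0.35 ± 0.13, *Insig1* -0.34 ± 0.14 and *Cyp51* -0.33 ± 0.16. The liver markers given above were also lower on balance in treated animals, and their part in these values was not tested.

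The 3 genes just outside the threshold were *Fscn1*, *Gstm1* and *Afp*. *Fscn1*, the actin-bundling protein fascin, was 7.88, 7.08, 7.79, 7.34 and 7.21 in treated animals and 8.28, 8.21, 8.31, 8.29 and 8.25 in controls. All treated animals were lower, and the controls were nearly equal. On the log2 scale permethrin over control was -0.81 ± 0.18 (adjusted p = 0.0514), and without permethrin replicate 1 or 3 the adjusted p was 0.0154 and 0.036. It was also under 0.05 with the deposited scaling (0.0488), a pseudocount of 4 (0.0471), a filter keeping the upper 40% (0.0418) and array weights (0.0278). A second probe set of the gene gave 0.03 ± 0.21, so the probe sets disagree.

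*Afp*, alpha-fetoprotein, was 5.97, 6.44, 6.25, 6.29 and 6.11 in treated animals and 5.34, 5.17, 5.35, 4.95 and 5.42 in controls. The groups did not overlap, and the 3 measured probe sets of the gene gave 0.97, 1.13 and 0.99. The adjusted p of the brightest was 0.114. With only the compared groups in the model, with array weights and with only the 7-day groups it was 0.01, 0.00376 and 0.0135.

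No gene was lower past the threshold. After *Fscn1*, the 9 smallest p-values among lower genes belonged to *Pianp* (-0.76 ± 0.22), *Cyp1a1*, *Nat10* (-0.45 ± 0.14), *Tchp* (-0.46 ± 0.15), *Fdft1*, *Tc2n* (-0.43 ± 0.14), *Prkab2* (-0.42 ± 0.14), *Ttll11* (-0.62 ± 0.21) and *Ppan* (-0.50 ± 0.17). Their adjusted p-values ran from 0.686 to 1.0.

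Cell makeup was read from 18 marker lists with 239 tested genes, none of which passed. Defining markers of lung were bright. *Scgb1a1*, the club cell secretoglobin, was 13.16 ± 0.03 in treated animals and 13.16 ± 0.06 in controls (SD), at the top of the normalized scale. *Sftpc*, the alveolar type 2 surfactant protein, was 12.77 ± 0.06 in treated animals and 12.68 ± 0.13 in controls (SD). The 14 tested alveolar type 2 markers had 12 negative and 2 positive estimates, with a median of -0.10. List medians ran from -0.37 for liver to 0.54 for erythroid cells. Club cell markers had a median of 0.09, with 15 of 16 estimates positive, among them *Cldn10* at 0.29 ± 0.14; their summed signal was 50182 to 55415 in treated animals and 48914 to 52071 in controls. T and NK cell markers had a median of 0.21, with 17 of 21 estimates positive. Their sums were 1416 to 2162 in treated animals and 1483 to 2547 in controls. Striated muscle markers of the heart had a median of -0.14, with 25 of 27 estimates negative. Their sums were 8937 to 18528 in treated animals and 7952 to 25020 in controls. Fibroblast markers had 15 of 18 estimates negative (median -0.12), and B and plasma cell markers 10 of 11 (median -0.10). The part of these shifts in the 12 rises was not tested.

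Dividing cells did not differ past the threshold. *Mki67* was 6.25, 6.50, 6.49, 5.17 and 5.99 in treated animals and 6.88, 6.32, 5.88, 5.48 and 6.41 in controls. *Top2a* was 0.11 ± 0.22, and none of 31 tested cell cycle genes passed (median 0.08).

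**Figure D3:**
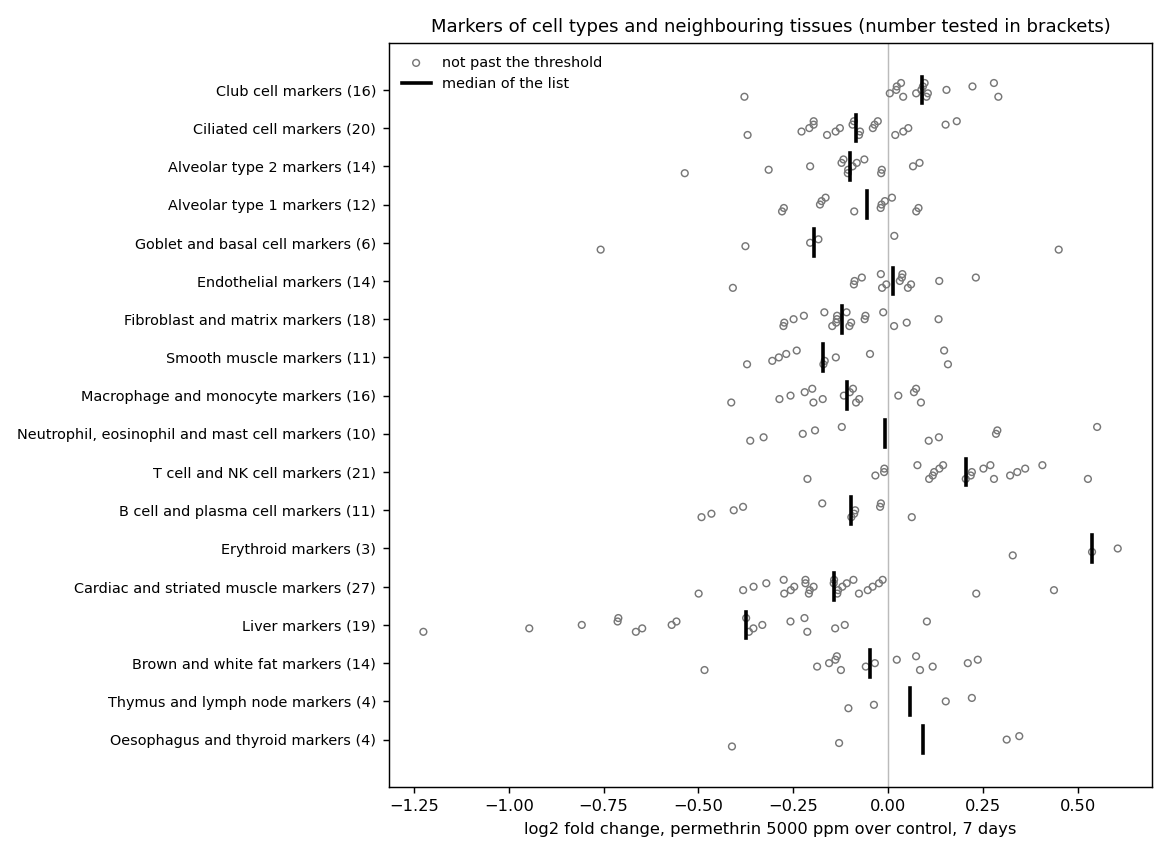
Log2 fold change of permethrin 5000 ppm over control at 7 days for each tested marker of 18 cell types and neighbouring tissues, with the median of each list as a bar. No marker passed the threshold; the liver list lies lowest (median -0.37) and the 3 erythroid markers highest (median 0.54).

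Over the 12 genes, the mean deviation from the group mean was -0.11, -0.06, 0.00, 0.08 and 0.10 log2 units for treated replicates 1 to 5, and -0.07, 0.04, 0.20, -0.04 and -0.12 for controls. Replicate 4 was the highest in 4 of the 12 genes, replicates 2 and 5 in 3 each, and replicates 1 and 3 in 1 each.

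The 14-day animals are different mice, with their own controls, and gave a separate measurement of the same dose. All 12 genes were higher there, and 9 passed the threshold (17 of 13020 genes passed in all, 0.131%). *Gsta2* was 9.04, 9.05, 8.91, 9.35 and 8.78 in treated animals at 14 days and 7.31, 7.04, 7.35, 7.97 and 7.38 in their controls. The groups again did not overlap, and the log2 fold change was 1.62 ± 0.21.

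The 3 genes that did not pass at 14 days were *Blvrb* (0.80 ± 0.24, adjusted p = 0.485), *Gclm* (0.38 ± 0.16, adjusted p = 0.919) and *Ces1f* (adjusted p = 0.113). In 4 of these 10 arrays the 3' probe set of Gapdh exceeded its 5' probe set, a sign of degraded RNA, by more than 0.7 log2 units (control replicates 4 and 5 and permethrin replicates 4 and 5). This limit was chosen with earlier results of these data known. Without the arrays above that limit 9 of the 12 passed, now with *Ces1f* (1.11, adjusted p = 0.0159) and without *Cbr3* (adjusted p = 0.0575).

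The change of the effect between the times was tested directly. No gene passed (371 genes, 2.85%, at an unadjusted p under 0.05), and none of the 12 had an unadjusted p under 0.05. The lowest estimates among the 12 were *Blvrb* at -0.45 ± 0.33 and *Gclm* at -0.43 ± 0.23, and *Ces1g* was 0.20 ± 0.40. The smallest p-values over all genes were for *Dubr* (1.88 ± 0.44), *Maoa* (-0.57 ± 0.15) and *Pdp2* (0.66 ± 0.17), all with an adjusted p of 1.0. Age and feeding time differ together between these groups and cannot be told apart. The marker lists also differed between the times. Their highest medians at 14 days were 1.92 for goblet and basal cells, 0.92 for striated muscle of the heart and 0.50 for fat. At 7 days these were -0.19, -0.14 and -0.05. The lowest at 14 days was -0.11 for liver. The part of these shifts in the change with time was not tested.

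Raising the dose to 10000 ppm for 7 days gave higher estimates in all 12 genes. The difference between the doses was tested without the controls, and no gene passed (269 genes, 2.07%, at an unadjusted p under 0.05). Of the 12, 7 had an unadjusted p under 0.05. *Srxn1* had the smallest p, with 7.72, 8.03, 7.91, 8.50 and 8.01 at 10000 ppm against 7.24, 7.39, 7.28, 7.22 and 7.34 at 5000 ppm. Every animal of the higher dose lay above every animal of the lower, and the difference was 0.74 ± 0.14 (adjusted p = 0.0836).

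*Aldh3a1* differed by 0.94 ± 0.29 and *Gsta2* by 0.75 ± 0.21 between the doses, while *Ces1f* differed by 0.13 ± 0.24 and *Gclm* by 0.20 ± 0.16. Outside the 12, *Zfp994* (-1.57 ± 0.37) and *Abcc3* (0.45 ± 0.11) had the next smallest p-values, both with an adjusted p of 1.0. Against the same controls, the log2 fold changes at 5000 and 10000 ppm were 1.79 and 2.53 for *Gsta2*, 1.64 and 1.95 for *Nqo1*, and 1.88 and 2.23 for *Ces1g*. Because both doses share the control animals, these pairs are not independent. At 10000 ppm 31 genes passed (0.238%), all of the 12 among them.

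**Figure D4:**
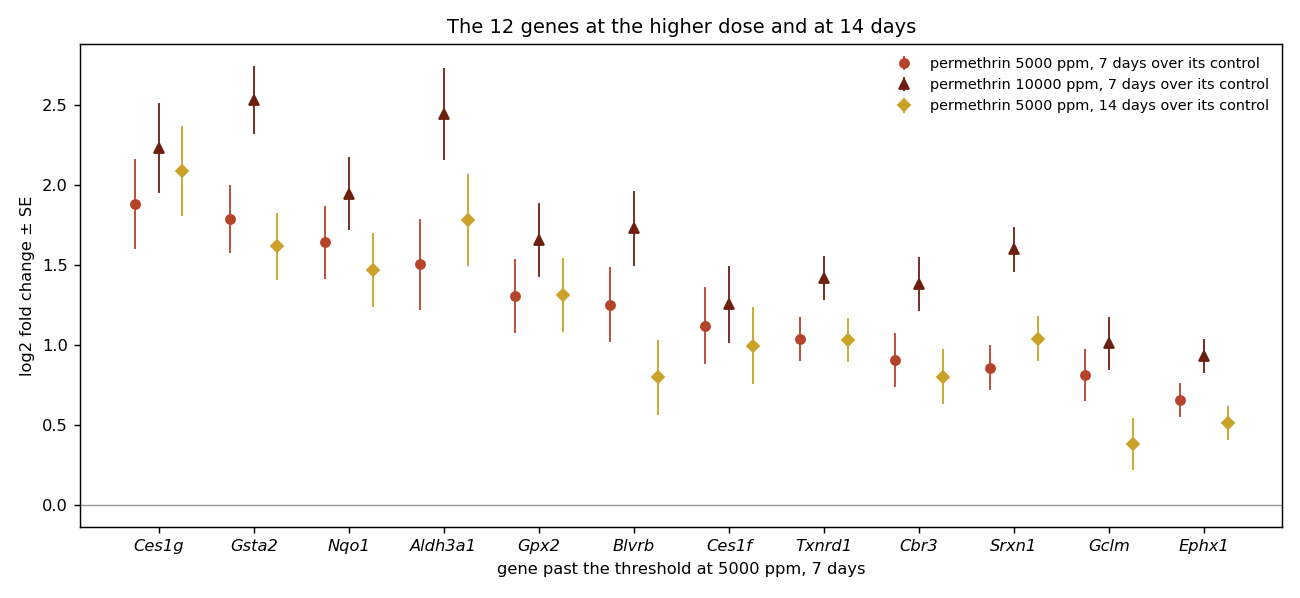
Log2 fold change ± SE of the 12 genes for permethrin 5000 ppm at 7 days (circles), 10000 ppm at 7 days (triangles) and 5000 ppm at 14 days (diamonds), each over the control of its own time; both 7-day doses share the same controls. All 36 estimates lie above 0, and the estimate at 10000 ppm is above that at 5000 ppm for 7 days in all 12 genes.

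Against isoniazid for the same 7 days, 11 genes passed (0.0845%), 9 higher (0.0691%) and 2 lower (0.0154%) in permethrin lungs, and 8 of the 9 were among the 12. The ninth was *Aox1*, aldehyde oxidase (0.86 ± 0.18, adjusted p = 0.0245), named after its values were seen. The 12 were selected as high in these same permethrin lungs, so their overlap with the 9 is not independent of that selection. *Ces1g* was 7.65, 7.62, 7.08, 7.94 and 7.48 in permethrin lungs and 5.15, 5.34, 5.21, 4.72 and 5.01 in isoniazid lungs. The groups lay far apart (2.47 ± 0.28, adjusted p = 1.33e-06), and *Nqo1* differed by 1.48 ± 0.23 (adjusted p = 0.000605). *Blvrb*, *Cbr3*, *Aldh3a1* and *Gclm* were 0.88 ± 0.24, 0.61 ± 0.17, 1.08 ± 0.29 and 0.53 ± 0.16 higher in permethrin lungs without passing.

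*Cyp1a1* was 4.68, 4.66, 4.42, 5.91 and 4.17 in permethrin lungs and 8.65, 8.23, 7.55, 8.67 and 7.68 in isoniazid lungs. Every isoniazid animal was higher, and the difference was -3.39 ± 0.37 (adjusted p = 7.92e-07). *Alas1* differed by -0.76 ± 0.13 (adjusted p = 0.00277), but the adjusted p was 0.254 with each array centred on its median and 0.105 with the mean of its probe sets. *Alas1* and *Cyp1a1* were the 2 genes lower in permethrin lungs than in isoniazid lungs.

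Promoters of the 12 genes, which rose in the same comparison, were searched for the antioxidant response element, the site that NRF2 binds with small MAF proteins. Windows of 250 bases before to 50 after the start came from RefSeq on build GRCm38.p6, and 10 of the 12 genes matched an entry. The core TGACNNNGC was present on either strand in 3 of the 10, *Srxn1*, *Txnrd1* and *Gclm*, against 16.8% of 10484 tested genes with a window. The xenobiotic response core GCGTG was present in 5 of the 10, against 54.3%. A longer form, TGANTCAGC, which can overlap the first core and was chosen after the windows were seen, was present in *Srxn1* alone, against 1.29% of tested genes. In *Srxn1* the first core was read on the opposite strand at bases 28 to 36 after the start, outside the stretch shown, so its capitals mark only the longer form. The 250 bases before the start of these 3 genes are shown because each holds 1 of the forms, in capitals. They are *Srxn1* at chr2:152105274-152105523, the second of 3 listed *Txnrd1* starts at chr10:82858956-82859205 and *Gclm* at chr3:122245307-122245556, all on the + strand.
Srxn1: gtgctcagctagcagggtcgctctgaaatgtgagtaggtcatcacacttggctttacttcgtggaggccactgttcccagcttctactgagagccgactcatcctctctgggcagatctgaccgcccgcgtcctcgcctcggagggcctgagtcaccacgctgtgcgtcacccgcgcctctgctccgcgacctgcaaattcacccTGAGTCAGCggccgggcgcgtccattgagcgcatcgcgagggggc
Txnrd1: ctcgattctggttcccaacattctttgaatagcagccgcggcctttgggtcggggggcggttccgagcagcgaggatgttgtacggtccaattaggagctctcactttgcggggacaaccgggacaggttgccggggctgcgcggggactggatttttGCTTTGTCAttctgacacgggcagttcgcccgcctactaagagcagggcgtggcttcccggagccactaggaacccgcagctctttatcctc
Gclm: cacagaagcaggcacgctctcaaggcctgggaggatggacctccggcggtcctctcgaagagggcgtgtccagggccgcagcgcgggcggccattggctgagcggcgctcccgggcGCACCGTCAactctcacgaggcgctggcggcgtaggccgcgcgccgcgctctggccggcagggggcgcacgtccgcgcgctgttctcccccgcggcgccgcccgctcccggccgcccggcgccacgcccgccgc
In *Srxn1* the capitals mark the longer form at bases -45 to -37 from the start, and in *Txnrd1* (-92 to -84) and *Gclm* (-134 to -126) the core read on the opposite strand. A match is a description of the letters in the window, and a window without one says nothing of sites elsewhere.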

How the data were processed

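Per the labels' protocols, lung RNA was copied into biotin-labelled cRNA with a 3'-priming kit for Affymetrix arrays. The deposited values are linear signal intensity per probe set, made by the authors with MAS5 per the submitters' processing notes, with no version given. Background correction and probe summary could not be varied.

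The intensities were log2 transformed with no pseudocount and quantile normalized over 39 arrays, so a change common to most genes is removed and the brightest probe sets reach a shared ceiling. Of 45101 probe sets 64 are controls; 34945 carry 1 symbol in the platform annotation, 932 several and 9160 none. A gene was its brightest probe set with 1 symbol, tested where the mean log2 signal lay in the upper 60% of probe sets (3.43 or more, equal to a signal of 10.8); 13020 genes remained. A model of 8 group means was fitted with limma 3.58.1 in R 4.3.3 (empirical Bayes with trend), with two-sided p-values adjusted by Benjamini-Hochberg over all tested genes at 0.05. The procedure was tested on simulated data. Figures used matplotlib.

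Against the control at 7 days, the genes named were all those past the threshold, the smallest p-values to 10 per direction, the members past the threshold and up to 4 others of each list, fixed markers, and the 3 genes on each side of the threshold; other comparisons name at most 5 per direction and these genes. The members and lists were chosen with earlier results of these data known. Alternatives covered scaling, pseudocount, filter, probe set rule, model, weights and each animal left out.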

Additional observations from a re-analysis of the deposited data

Results flagged for a closer look

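In groups of 5, an animal was marked where its gap to the nearest other animal exceeded 0.71 of the group's range (Dixon's test). Of 134 groups (67 named genes, 2 groups each) 11 were marked; chance marks about 1 in 20.

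In treated lungs, *Ptgr1* was 8.17 in replicate 3 (the others 8.85 to 9.09), *Abcc1* was 7.98 in replicate 4 (8.27 to 8.32), *Taldo1* was 10.27 in replicate 5 (9.64 to 9.78) and *Alas1* was 9.73 in replicate 5 (10.19 to 10.33). In control lungs, *Gsta3* was 9.50 in replicate 4 (8.82 to 9.00), *Gsr* was 8.30 in replicate 1 (7.56 to 7.72), *Insig1* was 8.23 in replicate 5 (8.58 to 8.67), *Prkab2* was 6.26 in replicate 5 (6.77 to 6.86) and *Cyp3a11* was 5.66 in replicate 3 (8.30 to 9.29). *Nqo1* was 4.65 in control replicate 2 (4.86 to 4.95), the 1 marked value among the 12 genes that rose. *Scgb1a1* was 13.05 in control replicate 1, where the others stood at the top of the scale (13.18).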

How the results depend on the processing

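All 12 rises kept their direction under the 21 alternatives. Leaving out 1 animal could hardly reverse them, since every treated animal lay above every control. The filters and most model settings leave a gene's estimate unchanged, so they bear on the call and not on the direction. *Gsta2*, *Nqo1*, *Ces1g* and *Gpx2* passed in all alternatives. Each has 1 measured probe set, so the mean of a gene's probe sets left its values unchanged. The count of 12 was 25 with array weights (24 higher and 1 lower, all 12 among them) and ran from 8 to 12 with 1 animal left out. Under the other settings it was 9 to 14. The deposited scaling, the pseudocount and the upper 40% filter each gave 1 lower gene, as did leaving out permethrin replicate 1 or 3. With a replicate block it was 9; same-numbered animals of the groups had deviations that correlated at 0.03 to 0.21, with 2 of 5 best matched to their own number, so the numbers were not taken to pair the animals. Settings chosen after seeing the data gave 14 with only the 7-day groups in the model and 14 with every probe set tested. The latter held 11 of the 12, without *Ces1f*.

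Against isoniazid the count of 11 was 6 with each array centred on its median, 17 with only the groups compared in the model, 29 with the replicate block and 37 with array weights, and ran from 7 to 13 with 1 animal left out. Between the doses it was 3 with array weights, 1 with only the 7-day groups, and 0 to 1 with 1 animal left out. The change with time gave 0 to 1 with 1 animal left out (1 without control replicate 3) and 0 without arrays of a high 3' to 5' ratio. Against isoniazid, *Ephx1* lost its call in 10 of 21 alternatives, *Gpx2* and *Aox1* in 9, *Srxn1* in 8, and *Txnrd1* and *Alas1* in 2. The cause of these shifts was not tested.

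Of the 55 named genes not past the threshold, 9 passed under some alternatives: *Fscn1* (lower) in 6, *Gstm1* in 5, *Gclc* in 4, *Gss* and *Afp* in 3 each, *Hmox1* in 2, and *Akr1b8*, *Aldh1a1* and *Pgd* in 1 each. Another 5 changed sign, each with a main estimate smaller than its SE. *Cyp1b1* was 0.10 with the mean of its probe sets and 0.043 with array weights, and *Scn3b* was 0.0058 with the mean. With array weights *Mki67* was 0.0045 and *Scgb1a1* -0.0033. With 1 animal left out, *Cyp1b1* ran from -0.20 to 0.015, *Mki67* from -0.29 to 0.12, *Top2a* from -0.032 to 0.21 and *Scgb1a1* from -0.023 to 0.013.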
